A study of Homo sapiens with 3 samples.

Results

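Small nucleolar RNAs (snoRNAs) guide the chemical modification of ribosomal RNA, and in human cells most of them are cut out of the introns of longer transcripts. Box C/D snoRNAs direct ribose methylation, and box H/ACA snoRNAs direct the conversion of uridine to pseudouridine. Some hosts are mRNAs of the translation machinery, whereas the hosts described here are non-coding RNAs whose spliced exons carry no long reading frame, and several of them are known as short-lived transcripts that nonsense-mediated decay removes in the cytoplasm. The snoRNA host genes examined were GAS5, SNHG1, SNHG5, SNHG6, SNHG7, SNHG8, SNHG12, ZFAS1 and EPB41L4A-AS1. They were chosen by RefSeq identifier (NR_002578, NR_003098, NR_003038, NR_002599, NR_003672, NR_003584, NR_024127, NR_003604 and NR_015370 in the same order), and are 9 of the 25443 transcripts with a value in at least 1 sample.

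HEK 293 cells, a human embryonic kidney line that the study's methods name as the HEK293T derivative, were kept for 48 h in 1 of 3 media. The control was grown in normal medium free of both chemicals, the DMSO sample with 1 mM of the solvent dimethyl sulfoxide, and the BDE-209 sample with 1 µM of the flame retardant decabromodiphenyl ether in 1 mM DMSO. Each condition had 1 library of polyA RNA, so no difference has a replicate check, and every interval and p-value given below covers counting error between libraries only, not variation between cultures. In such bulk samples, fewer cells of a kind and less RNA per cell cannot be told apart. Levels are RPKM, that is, reads scaled by transcript length and by the number of mapped reads, and whole read numbers were recovered from the steps of these values.

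All 3 libraries had a similar depth, with recovered totals of 4676793 to 4843623 reads, and 1 read on a transcript of 1 kb was worth 0.206 to 0.214 RPKM. These totals are what the RPKM values were scaled by, and they are lower than the uniquely mapped reads listed in the study's supplement, for a reason not stated, so the RPM given below are relative to the recovered totals. The neurofilament genes NEFL and NEFM, the related INA and the intermediate filament gene VIM, which this line is known to express, lay between 24.4 and 299 RPKM, while PAX2 had no row. VIM was lower in BDE-209 (299, 296 and 261 RPKM in control, DMSO and BDE-209, exact binomial test against DMSO, adjusted p = 0.0084), and its part in the host values was not tested. Of the markers of blood, liver and endothelium, PTPRC had no row and ALB, CDH5 and PECAM1 had at most 14 reads in any library.

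On hg19 (GRCh37), GENCODE places GAS5 at chr1:173827697-173838020 and SNHG12 at chr1:28905050-28909644, both on the minus strand. SNHG1 lies at chr11:62619450-62623425, SNHG5 at chr6:86360209-86388650 and SNHG7 at chr9:139615818-139622636, also on the minus strand. On the plus strand are SNHG8 at chr4:119199858-119206471, ZFAS1 at chr20:47894715-47916137 and EPB41L4A-AS1 at chr5:111496223-111500515. The last of these runs antisense to EPB41L4A, and ZFAS1 begins beside ZNFX1 on the opposite strand. Whether the counting used strand is not stated, so reads from overlapping parts of such partners cannot be told apart.

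Transcripts of snoRNA host genes are known for a start site that opens with a run of pyrimidines, as in the mRNAs of ribosomal proteins. RefSeq start sites were given for 8 of the 9 genes, and their sequences each matched 1 place in GRCh37. The following windows show bases -40 to 20 around the annotated start (the base at 41 of each line is the first transcribed one). They are shown because this feature was not used to choose the genes. Capitals mark the letters TATAA between -40 and -20, and a start at C that is followed by at least 4 bases that are each C or T.
SNHG5: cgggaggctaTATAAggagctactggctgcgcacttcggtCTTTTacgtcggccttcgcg
SNHG12: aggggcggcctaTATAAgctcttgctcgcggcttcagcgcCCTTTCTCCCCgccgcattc
ZFAS1: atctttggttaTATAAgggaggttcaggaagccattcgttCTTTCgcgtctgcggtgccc
SNHG7: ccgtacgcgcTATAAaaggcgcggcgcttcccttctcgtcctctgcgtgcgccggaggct
SNHG8: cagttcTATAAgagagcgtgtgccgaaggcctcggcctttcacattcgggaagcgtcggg
SNHG1: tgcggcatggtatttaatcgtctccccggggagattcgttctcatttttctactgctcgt
GAS5: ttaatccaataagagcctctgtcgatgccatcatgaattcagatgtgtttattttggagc
EPB41L4A-AS1: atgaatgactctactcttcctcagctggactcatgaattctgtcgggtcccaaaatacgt

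TATAA on the transcribed strand was present in 5 of the 8 windows (62.5%), at -34 in SNHG8, at -30 in SNHG5 and SNHG7, at -29 in ZFAS1 and at -28 in SNHG12. Of all 35116 start sites of the table, 3.82% held these letters in the same span. The reverse letters TTATA were in 1 of the 8 windows and in 1.61% of all. That window is the one of ZFAS1, where they overlap the TATAA already counted and are not a separate site. The pyrimidine start was present in 3 of the 8 (37.5%), against 4.07% of all start sites, and was longest in SNHG12 with 11 bases. Among the other non-coding snoRNA hosts described below, 3 of 11 start sites (27.3%) had the pyrimidine start and 1 (9.09%) had TATAA. Among the protein-coding snoRNA hosts, also described below, 18 of 42 start sites (42.9%) had the pyrimidine start and 6 (14.3%) had TATAA. Both patterns were chosen after the sequences were seen and are given as a description. For GAS5 the RefSeq start lies upstream of the GENCODE gene. A missing TATAA says only that these letters are not between -40 and -20. The pyrimidine start was scored at the annotated first base alone, so a run that begins elsewhere in the window was not counted.

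ZFAS1 and EPB41L4A-AS1 are examples of both kinds of host. The snoRNAs SNORD12C, SNORD12B and SNORD12 of ZFAS1 lie at chr20:47895477-47895565, chr20:47896856-47896946 and chr20:47897220-47897309 on the plus strand, in introns of 10 or 11 annotated ZFAS1 transcripts, and SNORD12 and SNORD12B also overlap an exon of 1. SNORA13, at chr5:111497182-111497314 on the plus strand, is intronic in 8 annotated transcripts of EPB41L4A-AS1 and overlaps an exon of 1. They are printed to show the short RNAs that these hosts release, as DNA letters of the transcribed strand. Capitals mark box C (TGATGA) and the last box D (CTGA) in the box C/D snoRNAs and the last ACA of the H/ACA snoRNA.
SNORD12C: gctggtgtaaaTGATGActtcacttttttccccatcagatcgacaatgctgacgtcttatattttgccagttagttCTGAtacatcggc
SNORD12B: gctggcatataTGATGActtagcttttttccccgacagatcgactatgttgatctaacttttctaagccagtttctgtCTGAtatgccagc
SNORD12: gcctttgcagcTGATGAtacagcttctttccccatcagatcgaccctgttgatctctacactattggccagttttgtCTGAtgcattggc
SNORA13: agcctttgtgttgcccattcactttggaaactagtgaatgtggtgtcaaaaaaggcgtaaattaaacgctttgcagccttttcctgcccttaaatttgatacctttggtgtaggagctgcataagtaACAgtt

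Box C began at base 12 in the 3 ZFAS1 snoRNAs, and 9 bases followed box D in each. In SNORA13, 3 bases followed the ACA.

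The hosts spanned a wide range of levels. GAS5, host of a cluster of box C/D snoRNAs and known to accumulate in growth-arrested cells, was the highest, with 128 RPKM in the control, 143 in DMSO and 128 in BDE-209. It lay above 97.5% to 97.9% of the transcripts listed in each library. SNHG5, which hosts the SNORD50 pair, had 88.3 RPKM in the control, 99.4 in DMSO and 98.3 in BDE-209. SNHG1, the host of SNORD22 and its neighbours, had 86.3, 82.4 and 87.5 RPKM in the same order. SNHG6, the host of SNORD87 at chr8:67832796-67838633 on the minus strand, followed with 48.6, 43.4 and 52.1 RPKM.

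The other 5 hosts were at lower levels. SNHG12, which carries both kinds of snoRNA, had 17.7 RPKM in the control, 10.8 in DMSO and 16.9 in BDE-209. EPB41L4A-AS1 had 8.65, 6.30 and 9.31 RPKM, and SNHG8, the host of SNORA24, 4.43, 8.33 and 6.55 RPKM. ZFAS1 had 3.44, 5.95 and 5.45 RPKM. SNHG7, the host of the SNORA17 pair, was the lowest by its mean, with 3.42, 2.59 and 2.55 RPKM. Exact Poisson intervals (95%) of SNHG5 and SNHG1 overlapped in every library, as did those of EPB41L4A-AS1 and SNHG8 and those of SNHG8 and ZFAS1, so their order is not resolved. The intervals of ZFAS1 and SNHG7 overlapped in the control and BDE-209, and those of SNHG12 and EPB41L4A-AS1 in DMSO and BDE-209. The other neighbouring pairs (GAS5 and SNHG5, SNHG1 and SNHG6, SNHG6 and SNHG12) were apart in all 3 libraries.

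**Figure D1:**
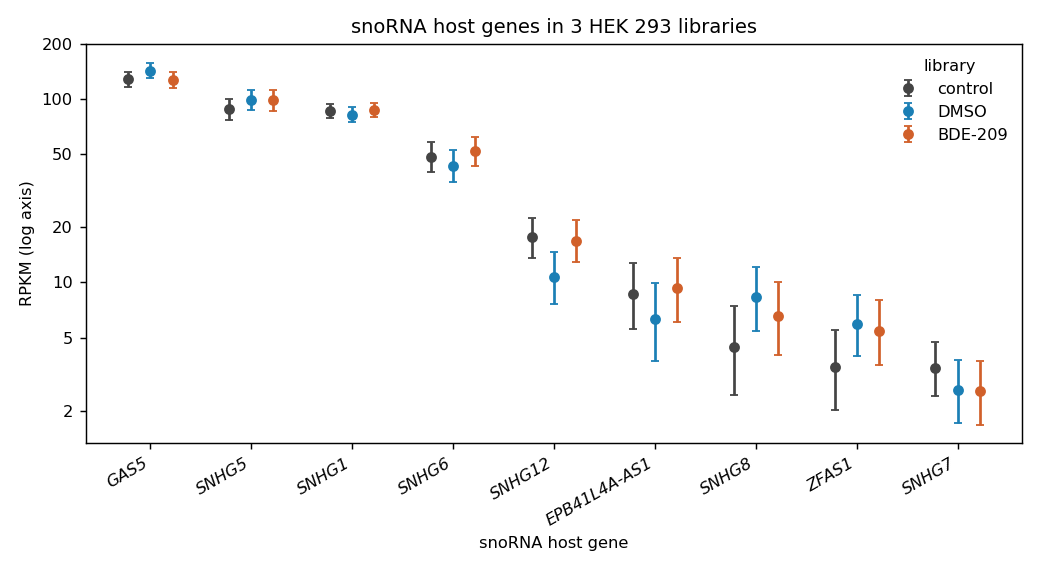
RPKM (log axis) of the 9 snoRNA host genes in the control, DMSO and BDE-209 libraries, with 1 point per library and bars for the exact 95% Poisson interval of the reads. Points run from 143 RPKM for GAS5 in DMSO down to 2.55 RPKM for SNHG7 in BDE-209, and the bars widen as levels fall.

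The sum over the 9 hosts moved little. It amounted to 1370 reads in the control, 1379 in DMSO and 1367 in BDE-209, which is 283 (95% Poisson interval 268 to 298), 288 (273 to 304) and 292 (277 to 308) RPM, reads scaled to library size alone. The intervals overlap in all pairs of libraries. GAS5, SNHG1, SNHG5 and SNHG6 together made up 90.3%, 91.6% and 90.0% of the summed RPKM, so this sum says little about the low hosts. Ratios of single hosts between the highest and the lowest library ranged from 1.06 for SNHG1 to 1.88 for SNHG8.

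To see the effect of the solvent, the DMSO library was compared with the control. No host passed the exact binomial test of the recovered reads after Benjamini-Hochberg adjustment over 24589 transcripts, of which 0.411% passed (0.22% higher and 0.191% lower in DMSO). The lowest adjusted p of the 9 was 0.505, and 1 host had an unadjusted p under 0.05, as did 6.3% of all transcripts. This was SNHG12, whose 65 control reads stood beside 39 in DMSO, a log2 ratio of -0.72 (exact binomial test, p = 0.014, with -1.33 to -0.12 as the 95% interval by the Clopper-Pearson method). Its interval excludes 0 before the adjustment only.

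The direction was not shared by the hosts, since 4 had ratios above 0 and 5 below 0 between DMSO and the control. For SNHG8, 14 control reads stood beside 26 in DMSO (log2 ratio 0.91, interval -0.08 to 1.96). ZFAS1 had 29 against 17 reads (0.79, interval -0.12 to 1.74). Both intervals include 0, and they reach up to a ratio of 3.90 for SNHG8 and 3.35 for ZFAS1, so differences up to these sizes are not excluded at this depth. EPB41L4A-AS1 had 18 against 25 reads (-0.46, interval -1.42 to 0.48), and SNHG7 27 against 36 (-0.40, interval -1.17 to 0.36).

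The well-covered hosts were bounded more closely. GAS5 had 446 reads in DMSO and 404 in the control (log2 ratio 0.16, interval -0.04 to 0.36). SNHG5 had 249 and 224 reads (0.17, interval -0.10 to 0.44), and SNHG1 447 and 474 (-0.07, interval -0.26 to 0.12). For SNHG6 the reads were 98 and 111 (-0.16, interval -0.57 to 0.24). The median log2 ratio of the 9 hosts was -0.07, beside 0.01 over 15431 transcripts with at least 10 reads in both libraries, whose quartiles were -0.12 and 0.13. No host reached a 2-fold ratio, as 18.2% of all transcripts did with zero set to 0.5 RPKM. That share includes transcripts with few or no reads in a library, whereas each host had at least 14 reads in every library, so it is not matched in depth.

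BDE-209 against DMSO, which share the solvent, addresses the effect of the flame retardant itself. Again no host passed the test (0.061% of 24608 transcripts did, 0.0325% higher and 0.0284% lower in BDE-209), with an adjusted p of 1 for each, and 1 had an unadjusted p under 0.05 (4.56% of all). It was once more SNHG12, with 60 reads in BDE-209 against 39 in DMSO (log2 ratio 0.65, interval 0.05 to 1.27, exact binomial test, p = 0.0272). The DMSO library, and so its SNHG12 value, enters both this comparison and the preceding one. EPB41L4A-AS1 had 26 reads against 18 (0.56, interval -0.36 to 1.52), and SNHG6 115 against 98 (0.26, interval -0.14 to 0.67).

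Lower values in BDE-209 were found for SNHG8, with 20 reads against 26 in DMSO (-0.35, interval -1.26 to 0.55), and GAS5, with 389 against 446 (-0.17, interval -0.37 to 0.03). ZFAS1 differed by -0.13 (interval -0.95 to 0.69). SNHG1 (0.09, interval -0.10 to 0.28), SNHG5 (-0.02, interval -0.28 to 0.25) and SNHG7 (-0.02, interval -0.86 to 0.81) were nearest to 0. For SNHG5 the interval excludes a ratio above 1.19 or below 0.826, whereas for SNHG7 ratios from 0.552 to 1.75 remain within counting error. The median of the 9 hosts was -0.02, and that of the 15371 transcripts with at least 10 reads in both libraries was 4.63e-05. Ratios of 2-fold or more were found for none of the hosts and for 18.4% of all transcripts, a share again not matched in depth.

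**Figure D2:**
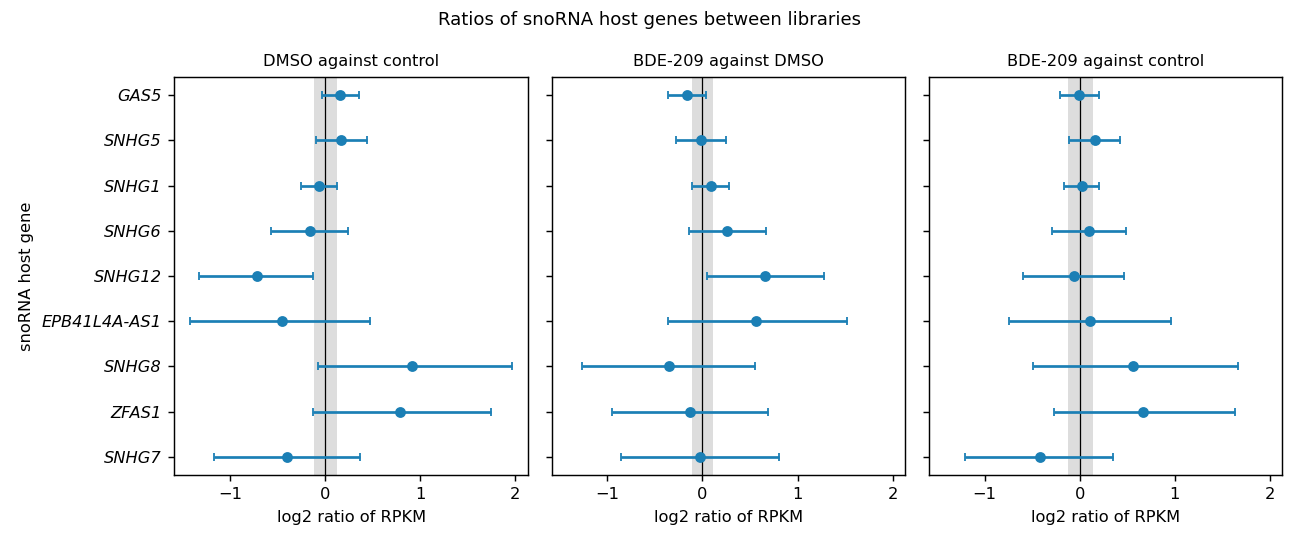
Log2 ratios of RPKM for the 9 hosts in the 3 comparisons, with bars for the 95% Clopper-Pearson interval of the reads and a grey band between the quartiles of all transcripts with at least 10 reads in both libraries. All bars cross 0 but those of SNHG12 in DMSO against control (-1.33 to -0.12) and in BDE-209 against DMSO (0.05 to 1.27).

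The combined treatment was described by BDE-209 against the control, which shares 1 library with each of the other comparisons. None of the 9 hosts passed the test, against 0.531% of 24661 transcripts (0.324% higher and 0.207% lower in BDE-209), and none had an unadjusted p under 0.05, against 6.51% of all. SNHG12 was at nearly the same level in both libraries, with 60 and 65 reads (log2 ratio -0.06, interval -0.60 to 0.46). GAS5 had 389 and 404 reads (-0.00402, interval -0.21 to 0.20), and SNHG1 464 and 474 (0.02, interval -0.17 to 0.21).

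The largest ratios of this comparison belonged to ZFAS1, with 26 reads against 17 (0.66, interval -0.27 to 1.64), and SNHG8, with 20 against 14 (0.57, interval -0.49 to 1.66). SNHG7 had 26 against 36 reads (-0.42, interval -1.21 to 0.35). SNHG5 differed by 0.16 (interval -0.11 to 0.43), EPB41L4A-AS1 by 0.11 (interval -0.74 to 0.96) and SNHG6 by 0.10 (interval -0.29 to 0.49). The median of the 9 was 0.10, beside 0.0048 over 15427 transcripts. At least a 2-fold ratio was seen in none of the 9 hosts and in 18.4% of all transcripts, which include many with fewer reads. A NOISeq calculation was written out again here, with the study's limits of a 2-fold change and a probability of 0.6 (its calls need not be those of the tool itself). No host was called in any comparison, while 2.87%, 2.94% and 2.86% of all transcripts were called in the order given above. This result for the hosts follows from the fold limit, since none reached a 2-fold ratio. The probability alone was at least 0.6 for 3, 1 and 1 of the hosts in the same order. No share of all transcripts was computed for the probability alone.

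SNHG7, SNHG8 and ZFAS1 have further RefSeq rows in the files, which changes how their values read. The SNHG7 row examined is the longest, with a recovered length of 2176 bases, and NR_024542 stood at 25.4, 23.8 and 25.9 RPKM and NR_024543 at 19.2, 19.01 and 21.4 in control, DMSO and BDE-209. These rows are several times higher than the 2.55 to 3.42 RPKM of NR_003672, and their log2 ratios between libraries were between -0.09 and 0.17. For ZFAS1, NR_003604 and NR_003605 had the same reads (17, 29 and 26) at recovered lengths of 1020 and 695 bases. The rows NR_036658 (4.52, 4.14 and 5.80 RPKM) and NR_036659 (9.20, 8.11 and 11.2) had no higher value in DMSO than in the control. Thus the DMSO value of ZFAS1 was above the control in 2 of its 5 rows. In NR_003606, with 4, 3 and 7 reads, the values were too few to place.

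The 3 rows of SNHG8 all had more reads in DMSO than in the control, 26 against 14, 16 against 11 and 5 against 3. These rows overlap, and are not independent of each other. How the authors divided reads among isoforms is not stated. Over all transcripts, the recovered reads summed to 121% of the recovered totals.

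**Figure D3:**
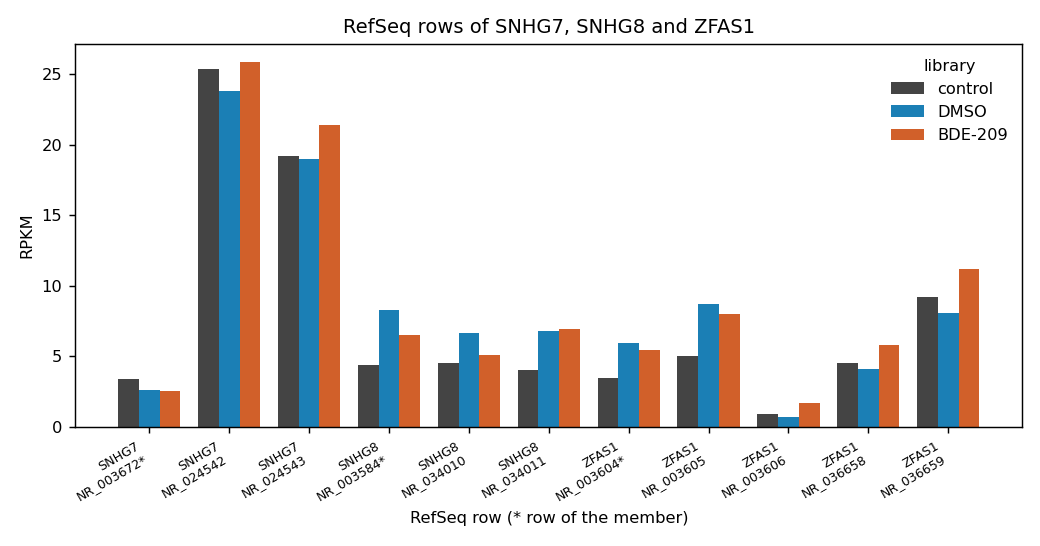
RPKM of each RefSeq row of SNHG7, SNHG8 and ZFAS1 in the 3 libraries, with 1 bar per library and no error bars. Stars mark the rows examined above, and that of SNHG7 is far below the other SNHG7 rows at 19.01 to 25.9 RPKM, and the ZFAS1 rows differ in which library is highest.

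The snoRNAs themselves lack a polyA tail and were barely present in these polyA libraries. Of 33 snoRNAs listed for the 9 hosts, 17 had a read in any library, and their reads summed to 44 in the control, 26 in DMSO and 30 in BDE-209. SNORA61, an H/ACA snoRNA of SNHG12, had 8, 7 and 6 reads in control, DMSO and BDE-209. SNORD47 of GAS5 had 8, 2 and 4 reads, and its neighbour SNORD76 7, 4 and 4. SNORA16A, also of SNHG12, had 4, 5 and 0 reads. Only 5 snoRNAs had a read in all 3 libraries, and a count of 0 allows up to 3 reads.

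SNORD22 of SNHG1 had 3, 1 and 5 reads, SNORD28 3, 1 and 0, and SNORD26 0, 2 and 0. SNORD79 of GAS5 had 4, 2 and 1. For SNHG7, SNORA17A had 1, 0 and 4 reads and SNORA17B 1, 1 and 0, and SNORA24 of SNHG8 had 0, 1 and 3. SNORA13 had 2, 0 and 1 reads, and SNORD12, SNORD12B, SNORD12C and SNORD99 had a single read in 1 library each. SNORA44 had at least 1 read, in the control only. Its recovered length was 66 bases, where the other H/ACA snoRNAs had 130 to 134. No snoRNA differed between libraries at an unadjusted p under 0.05 in the exact binomial test, and the lowest p was 0.0598. With 4 reads or fewer in a pair of libraries, as most of these snoRNAs had, the test cannot reach a p under 0.05 at any split. For those snoRNAs the outcome was fixed by depth. In 16 of the 17, the length recovered from the RPKM steps equalled the length of the RefSeq snoRNA gene, and in the other it divided it. The reads given for that other snoRNA, and the sums that hold them, are therefore lower bounds.

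Other non-coding snoRNA hosts were described by a further list of 14 genes, of which 9 had a row (SNHG14, SNHG16, SNHG18, SNHG19 and MEG8 had none). None passed the adjusted test in any comparison. In DMSO against control, 6 of the 9 had ratios below 0 (median -0.20), while 51.5% of all transcripts with at least 10 reads in both libraries were above 0. SNHG15 and DANCR had an unadjusted p under 0.05, as did 6.3% of all transcripts. SNHG15 had 26.4 RPKM in the control, 17.5 in DMSO and 24.8 in BDE-209, with a log2 ratio of -0.59 between DMSO and control (interval -1.05 to -0.15, exact binomial test, adjusted p = 0.421). DANCR, the host of SNORA26, had 92.7, 77.3 and 90.5 RPKM and a log2 ratio of -0.26 (interval -0.48 to -0.04, exact binomial test, adjusted p = 0.552).

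In BDE-209 against DMSO, 8 of these 9 genes had ratios above 0 (median 0.19), against 50.04% of all transcripts with at least 10 reads in both libraries, with SNHG15 at 0.50 (interval 0.04 to 0.97) and DANCR at 0.23 (interval 0.01 to 0.45). Both comparisons contain the same DMSO library. Between BDE-209 and the control, where that library plays no part, 3 of the 9 ratios were above 0 (51.1% of all transcripts) and the median was -0.02. SNHG3, which shares its locus with RCC1, had 45.4, 39.6 and 39.2 RPKM, and the intervals of its 3 ratios all include 0.

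**Figure D4:**
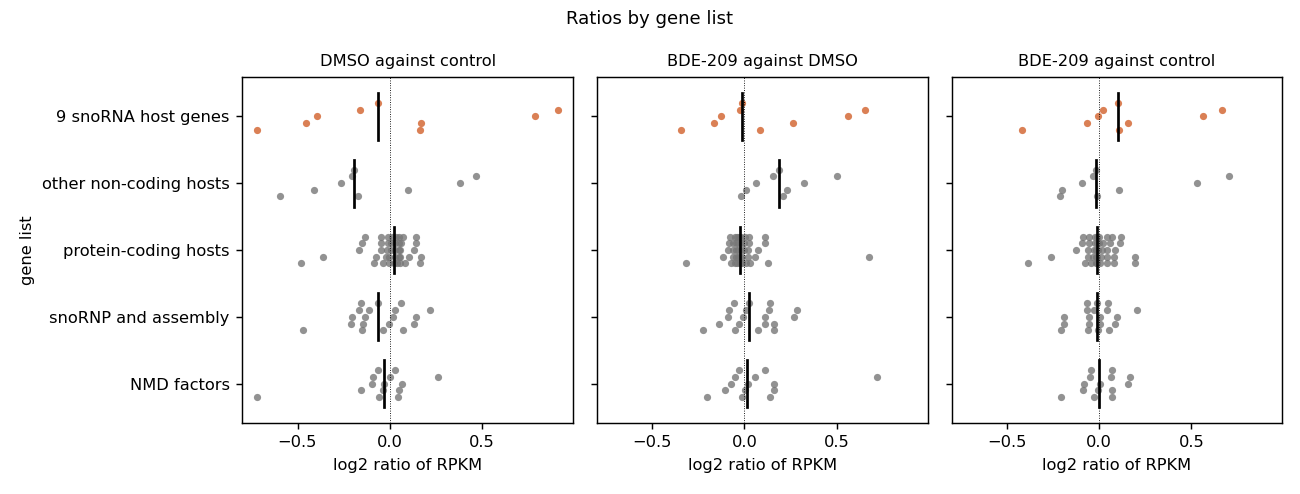
Log2 ratios of RPKM by gene list in the 3 comparisons, with 1 point per gene, a black bar at the median and vertical spread for legibility only. The non-coding hosts scatter widely around 0, up to 0.91 for SNHG8 in DMSO against control, while most protein-coding hosts lie close to 0.

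Protein-coding snoRNA hosts, mostly ribosomal protein and translation factor genes, had a median of 3058 to 3186 reads a library, with a range from 33 for PPAN in BDE-209 to 16609 for EEF2 in DMSO. All transcripts with a read had a median of 44 to 46 reads a library. The test calls smaller differences at greater depth, so the shares of genes and of all transcripts given below are not matched. RPL17, a ribosomal protein gene at the low end of this list, had 48, 34 and 53 reads in control, DMSO and BDE-209. Its log2 ratio between BDE-209 and DMSO was 0.67 (interval 0.02 to 1.34). In that comparison 7 of the 42 genes had an unadjusted p under 0.05 (4.56% of all transcripts did), RPL17 as the 1 higher and 6 lower in BDE-209. Ratios below 0 were found for 29 of the 42, while 50.04% of all transcripts with at least 10 reads in both libraries were above 0. Of 42 genes, 5 passed the test in DMSO against control (0.411% of all transcripts did), of which RPL3 (log2 ratio 0.13, exact binomial test, adjusted p = 0.000284), EEF2 (0.11, adjusted p = 6.77e-08) and CNOT1 (0.14, adjusted p = 0.0445) were higher and HSPA8 (-0.36, adjusted p = 3.45e-86) and TCP1 (-0.15, adjusted p = 0.0221) lower in DMSO. RPL3 is a ribosomal protein, EEF2 the factor that moves the ribosome along the mRNA, CNOT1 the scaffold of the main deadenylase, HSPA8 the constitutive cytosolic HSP70 and TCP1 a subunit of the CCT chaperonin. CNOT1 did not pass with median-of-ratios size factors (exact binomial test, adjusted p = 0.0744), which left 4 of the 5. The median over the 42 was 0.03, 25 being above 0. In this comparison of DMSO with control, 16 of the 42 had an unadjusted p under 0.05 (12 higher and 4 lower in DMSO), against 6.3% of all transcripts. Between BDE-209 and control 8 did (5 higher and 3 lower in BDE-209), against 6.51%. No gene passed in BDE-209 against DMSO, and in BDE-209 against control only HSPA8 did (-0.39, exact binomial test, adjusted p = 6.84e-96), with medians of -0.02 and -0.01. SNHG8 and SNHG12, with 14 to 65 reads a library, had larger ratios between DMSO and control that did not pass.

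Genes of the proteins that bind and assemble snoRNAs were all measured (19 of 19), and none passed the adjusted test in any comparison. Among the core proteins of box C/D particles, FBL, the ribose methyltransferase, had 334, 341 and 320 RPKM, NOP56 185, 168 and 181, and NOP58 149, 135 and 148. DKC1, the pseudouridine synthase of H/ACA particles, had 112, 100.04 and 108 RPKM. The lowest adjusted p of the list was 0.191, for the assembly ATPase RUVBL2 in DMSO against control (116, 135 and 116 RPKM). In that comparison 4 of the 19 had an unadjusted p under 0.05 (1 higher and 3 lower in DMSO), against 6.3% of all transcripts. In BDE-209 against DMSO 3 did (2 higher and 1 lower, against 4.56%), and in BDE-209 against control 1 did (higher, against 6.51%). These shares are not matched in depth. Medians were -0.06, 0.02 and -0.01 for the comparisons in the order given above.

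Nonsense-mediated decay, which degrades the spliced exons of several of these hosts, was described by 14 factors, all measured. None passed the adjusted test in any comparison, with medians of -0.03, 0.01 and -0.0026. UPF1, the central helicase of the pathway, had 34.6, 36.3 and 36.3 RPKM in control, DMSO and BDE-209. SMG1, the kinase that phosphorylates UPF1, had 22.4, 21.0 and 23.5 RPKM, with a log2 ratio of 0.16 between BDE-209 and DMSO (exact binomial test, adjusted p = 0.545).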

How the data were processed

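The study sequenced polyA RNA of 3 samples, 49 bases from 1 end. The authors mapped these reads to hg19, allowed 2 mismatches, used unique hits only, and deposited RPKM per RefSeq transcript, leaving out transcripts without a read. Absent rows were set to 0. The library total was taken as the number that makes the values of single reads whole lengths (score 0.414 to 0.453, next best 0.040 to 0.043), and reads as the smallest whole numbers that all values of a transcript allow, which are lower bounds (70 rows were ambiguous). Each pair of libraries was compared by a 2-sided exact binomial test at the recovered totals, with Benjamini-Hochberg adjustment and a threshold of 0.05. NOISeq, the study's tool, was written out again as an alternative. Scripts (scipy 1.17.1, numba 0.67.0 and pandas 2.3.3 under Python 3.11.15, with numpy 2.4.6) were tested on simulated libraries. In total, 96.0% of rows matched a RefSeq symbol, and a listed gene was represented by its row with the highest mean RPKM. All 9 hosts were named, with up to 3 genes a direction from each list among those past the test, and other list genes were named after their values were seen. Members and lists were chosen with earlier results of these data known. A listed marker gene is not reported here. Samples were grouped by their treatment labels.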

Additional observations from a re-analysis of the deposited data

How the results depend on the processing

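The count of hosts past the test stayed at 0 in 23 of 24 recomputed counts, and rose to 1 (SNHG12, DMSO against control) with read numbers doubled, a setting that assumes reads were under-recovered. Some of the 24 could only be 0. A 2-fold limit added to the test cannot raise a count of 0, and NOISeq with that limit cannot call hosts when none reached 2-fold. Of 141 recomputed host ratios, 136 kept their direction and their side of the threshold. Part of this tally was fixed beforehand. Adding 0.5 or 1 RPKM could change neither, since the adjusted p was carried over, and doubling the reads could not change a direction. With the highest row of the same gene, an alternative chosen after seeing the data, ZFAS1 turned to -0.18 in DMSO against control and 0.47 in BDE-209 against DMSO, and SNHG7 to 0.12 in BDE-209 against DMSO and 0.0265 in BDE-209 against control. For all transcripts, the counts in DMSO against control, BDE-209 against DMSO and BDE-209 against control were 101, 15 and 131. They became 1229, 610 and 1330 with doubled reads, 4, 1 and 7 when a 2-fold change was also asked, 4482, 4538 and 4536 by fold alone, and 706, 724 and 705 by NOISeq. At the uniquely mapped reads of the study's supplement the first and second were 190 and 41. With reads summed over the rows of a gene, which can count a read more than once, 1 snoRNP gene passed in DMSO against control and 4 protein-coding hosts in BDE-209 against control.

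The cause of these moves was not tested. No paired analysis was possible because each condition had 1 library, which also means that no library was left out. Depth limits SNHG7, SNHG8, ZFAS1 and EPB41L4A-AS1 most, with 14 to 36 reads a library.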

Other observations

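Over the 3 libraries, the median centred log2 RPKM of the 9 hosts was 0.02 in the control, -0.05 in DMSO and 0.07 in BDE-209. Among 8736 other transcripts with at least 100 reads in every library, those nearest to this profile by Euclidean distance were TANC2 (7.87, 7.53 and 8.21 RPKM in control, DMSO and BDE-209), KMT2E (23.6, 22.5 and 24.6) and SFMBT2 (10.8, 10.3 and 11.2). A profile of 3 points as flat as this one is met by many transcripts, and the match is given as a description only.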
